A study of Mus musculus with 3 samples.

Results

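H3K4me3 peaks that lie away from the ends of protein-coding genes were examined in suprabasal keratinocytes of the mouse. They were chosen by width and position: peaks of the deposited H3K4me3 list narrower than 4500 bp whose centre lay over 5 kb from both ends of every protein-coding gene span of RefSeq. By this rule 3547 of 16735 H3K4me3 peaks (21.2%, 95% Wilson interval 20.6 to 21.8) were selected, and they are called distal peaks here. The 12364 peaks under the same width limit and within 5 kb of a coding gene end serve as the comparison and are called proximal peaks. The distal peaks were split by position into 718 with a noncoding gene end within 1 kb of their centre (20.2%), 1764 others centred inside a coding gene span (49.7%) and 1065 with neither (30%).

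The study profiled chromatin by ChIP-seq, with 1 library for H3K4me3, 1 for the transcription factor DLX3 and 1 for nonspecific IgG. All 3 libraries came from wild type mice of strain BALB/c, and the cells were suprabasal keratinocytes, the differentiating layers of the epidermis, separated from the rest on a Percoll gradient. The sample labels describe the animals as adult and the series text as neonatal, which was not settled here. Only the DLX3 and H3K4me3 peak lists were used; with 1 library per antibody there is no replicate, so the intervals below cover counting error over peaks only and no test between conditions exists.

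H3K4me3 is trimethylation of lysine 4 of histone H3, a mark that collects at nucleosomes around active or poised transcription starts, above all at starts rich in CpG dinucleotides. Starts also exist away from the outer ends of coding genes: alternative promoters inside genes, promoters of long noncoding RNAs and of microRNA precursors, and tRNA and small nuclear RNA genes. Weak H3K4me3 is also known at some enhancers. DLX3 belongs to the distal-less homeodomain proteins; it acts in epidermal differentiation and in hair, tooth and bone, and its family binds DNA at sequences built on a TAATT core.

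The sequences shown first are those of transcripts whose starts lay at or next to the highest-scoring distal peaks, or at distal peaks with the highest-scoring DLX3 peaks. Windows reach from 250 bases before to 50 after a start listed by RefSeq for GRCm38.p6 (the assembly of mm10), on the strand of the gene, and capitals mark CpG dinucleotides. Srpk2 and Rbpj are coding genes with an internal start, and the other 4 windows belong to long noncoding RNAs.
Srpk2, chr5:23675918-23676217, minus strand: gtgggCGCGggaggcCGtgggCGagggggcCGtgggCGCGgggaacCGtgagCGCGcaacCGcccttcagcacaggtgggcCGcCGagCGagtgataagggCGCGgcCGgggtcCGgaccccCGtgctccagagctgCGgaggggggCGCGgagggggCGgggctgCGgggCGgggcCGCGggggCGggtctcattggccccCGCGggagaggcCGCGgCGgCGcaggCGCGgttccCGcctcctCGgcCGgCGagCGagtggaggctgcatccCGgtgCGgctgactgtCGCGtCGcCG
Rbpj, chr5:53590096-53590395, plus strand: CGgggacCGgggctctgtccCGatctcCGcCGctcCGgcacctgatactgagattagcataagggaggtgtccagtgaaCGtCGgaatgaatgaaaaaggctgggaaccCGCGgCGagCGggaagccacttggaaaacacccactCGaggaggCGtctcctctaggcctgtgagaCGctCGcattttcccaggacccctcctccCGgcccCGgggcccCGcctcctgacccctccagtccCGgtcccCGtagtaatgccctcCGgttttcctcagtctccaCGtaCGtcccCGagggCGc
Mir22hg, chr11:75461289-75461588, plus strand: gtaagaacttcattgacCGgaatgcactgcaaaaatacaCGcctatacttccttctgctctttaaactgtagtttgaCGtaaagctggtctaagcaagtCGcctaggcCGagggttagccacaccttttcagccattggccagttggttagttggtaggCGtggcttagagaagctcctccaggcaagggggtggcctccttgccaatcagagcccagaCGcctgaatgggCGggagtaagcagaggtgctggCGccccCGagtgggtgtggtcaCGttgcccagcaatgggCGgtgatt
A230028O05Rik, chr16:25059389-25059688, plus strand: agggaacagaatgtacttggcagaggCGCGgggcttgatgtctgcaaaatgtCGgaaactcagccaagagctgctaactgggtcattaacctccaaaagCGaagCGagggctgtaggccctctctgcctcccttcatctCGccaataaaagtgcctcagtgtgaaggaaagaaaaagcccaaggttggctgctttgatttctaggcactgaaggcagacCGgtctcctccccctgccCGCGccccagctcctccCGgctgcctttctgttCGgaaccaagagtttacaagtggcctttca
Gm13648, chr4:156059753-156060052, minus strand: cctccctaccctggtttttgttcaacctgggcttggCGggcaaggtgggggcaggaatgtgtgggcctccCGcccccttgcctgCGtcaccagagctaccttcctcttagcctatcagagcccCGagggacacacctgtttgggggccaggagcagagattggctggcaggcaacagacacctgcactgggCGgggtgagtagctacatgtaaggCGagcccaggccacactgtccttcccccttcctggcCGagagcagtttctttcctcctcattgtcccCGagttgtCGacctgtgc
Gm35378, chr7:34629395-34629694, plus strand: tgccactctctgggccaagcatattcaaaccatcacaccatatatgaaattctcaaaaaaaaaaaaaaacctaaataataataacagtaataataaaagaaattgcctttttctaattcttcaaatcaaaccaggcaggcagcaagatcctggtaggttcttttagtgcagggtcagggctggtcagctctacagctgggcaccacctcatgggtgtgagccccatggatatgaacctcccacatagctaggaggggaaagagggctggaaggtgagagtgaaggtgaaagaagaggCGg
The Srpk2 window held 47 CpG and the Rbpj window 26, while Mir22hg had 12, A230028O05Rik 11, Gm13648 9 and Gm35378 1. The ratio of observed to expected CpG fell across the same 6 windows from 1.02 at Srpk2 to 0.0693 at Gm35378. The Gm35378 window held the letters TAATT (on either strand), and the other 5 windows did not.

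MicroRNAs are cut from longer transcripts and pair with targets mainly through the seed, bases 2 to 8, shown here in capitals. The mature forms below, from RefSeq, lie downstream of the centres of 5 high-scoring distal peaks, some of them inside the peak, and are grouped by seed. The miR-17 precursor holds several families in a row, 4 of them shown here.
miR-17-5p: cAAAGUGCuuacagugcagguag
miR-20a-5p: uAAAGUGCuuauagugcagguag
miR-18a-5p: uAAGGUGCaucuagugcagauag
miR-19a-3p: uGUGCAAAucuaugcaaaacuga
miR-19b-3p: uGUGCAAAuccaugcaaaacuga
miR-92a-3p: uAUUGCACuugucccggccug
miR-15a-5p: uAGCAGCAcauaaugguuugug
miR-16-5p: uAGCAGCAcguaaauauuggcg
let-7a-5p: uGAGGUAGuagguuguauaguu
let-7f-5p: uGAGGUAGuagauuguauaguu
let-7d-5p: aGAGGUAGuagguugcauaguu
miR-200b-3p: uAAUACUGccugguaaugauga
miR-429-3p: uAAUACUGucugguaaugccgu
miR-200a-3p: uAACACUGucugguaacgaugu
miR-22-3p: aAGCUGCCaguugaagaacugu
The pairs miR-17 and miR-20a, miR-19a and miR-19b, miR-15a and miR-16, and miR-200b and miR-429 each share 1 seed, and the 3 let-7 forms share another. Their peaks are described with the microRNA loci below.

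The distal peaks were narrow and low-scoring. Their width ran from 320 to 4487 bp with a median of 1456 bp, against a median of 2161 bp in proximal peaks, and together they covered 5.96 Mb. The peak score is the authors' own value; its range has the form of the MACS 1.4 score, 10 times the negative log10 of a p-value, and it is compared within the list only. The median score was 162 in distal and 1004 in proximal peaks. A score under 100 was held by 1204 distal peaks (33.9%) and by 8.19% of proximal ones, and 31 distal peaks (0.874%) reached 3100, where scores pile up. In chromatin from many cells, a mark in few cells and a weak mark in many cannot be told apart.

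**Figure D1:**
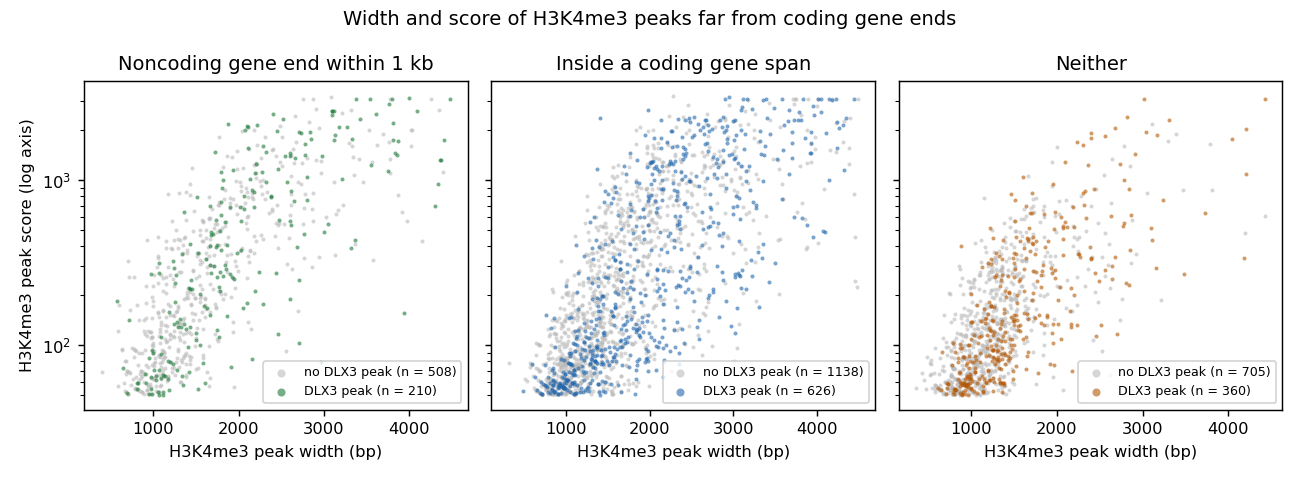
Width (bp) and score (log axis) of each distal H3K4me3 peak in the 3 positional classes; coloured points overlap a DLX3 peak and grey points do not. Scores rise with width in each class, and DLX3 peaks occur over the whole range, down to scores near 50.

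The classes differed in these values. Peaks at noncoding gene ends had a median width of 1582 bp and a median score of 265, intragenic peaks 1616 bp and 192, and the remaining peaks 1260 bp and 118. Scores under 100 made up 25.1% of the peaks at noncoding ends, 32.7% of intragenic peaks and 42.0% of the remaining ones. Distances from the nearest coding gene end had a median of 19783 bp, with 1761 peaks (49.6%) over 20 kb away and 313 (8.82%) over 100 kb away. The next H3K4me3 peak was a median of 18421 bp away. For 402 distal peaks (11.3%) it lay within 2 kb, and for 57 of these it was a peak of 4500 bp or wider.

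Values around the limits of the rule were as follows. Just inside the 5 kb limit, the peak in the neighbourhood of Zfp229 lay 5005 bp from a coding end with a score of 52.3; just outside it, the peak by Ezh1 lay 4999 bp away with a score of 61.7. Just inside the width limit stood a 4487 bp peak at the tRNA gene n-TEctc13 (score 3100), and just outside it a 4501 bp peak of score 3100 by Dyrk2. A further 105 peaks as far from coding ends were at least 4500 bp wide, among them ones inside Trp63, Runx1, Tfap2a and Ptch1, and are not described here.

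Against markers of the tissue, H3K4me3 lay within 1 kb of a gene end for 10 of 10 suprabasal markers (Krt1, Krt10, Lor and Ivl among them) and 8 of 8 basal markers. It lay at 4 of 6 fibroblast (Col1a1, Col1a2, Dcn, Pdgfra), 3 of 7 melanocyte (Mitf, Pmel, Sox10) and 3 of 5 neuronal markers (Grin1, Syt1, Tubb3). It also lay at 1 of 8 immune (Coro1a) and 1 of 6 endothelial markers (Kdr). Ptprc, Tyr, Dct, Pecam1 and Cdh5 were among those with none. Over all 21900 coding genes the share with H3K4me3 at an end was 59.3%. The part of other cell types in the distal peaks was not tested.

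A minority of distal peaks sat on listed transcript starts. RefSeq's promoter table lists starts of coding genes and long noncoding RNAs, including those of alternative transcripts. A coding start lay under 651 distal peaks (18.4%, 17.1 to 19.7), a long noncoding RNA start alone under 315 (8.88%), and no listed start under 2581 (72.8%). Among proximal peaks 69.5% covered a coding start, a gap that the rule largely sets, since gene ends include the outer starts. Of the intragenic peaks, 572 of 1764 (32.4%, 30.3 to 34.6) covered a coding start. They lay in 540 genes, and the rule leaves room for internal starts of the host gene but not for outer starts. These intragenic peaks scored a median of 685, against 117 for the 1187 intragenic peaks with no listed start. Of the peaks with neither position, 19 covered a listed start, a small number that follows from how the class was split. The promoter table is not complete, so a peak without a listed start may still lie at one.

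**Figure D2:**
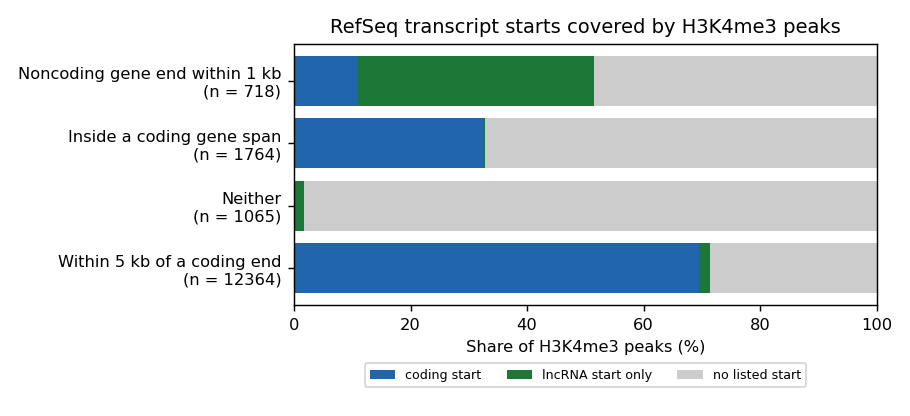
Share of H3K4me3 peaks (%) that cover a coding start, a long noncoding RNA start alone or no listed start, for the 3 classes of distal peaks and for proximal peaks. Coding starts underlie 32.4% of intragenic distal peaks; the higher share in proximal peaks and the near absence in the last distal class follow from the positional rule.

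Inside genes, the 3' end held the fewest peaks. For the 1431 intragenic peaks whose host has a strand in the promoter table, the host span was cut into 4 equal parts. From the 5' to the 3' end these held 24.6%, 35.0%, 26.4% and 14.0% of the peaks. With a coding start, 28.7% lay in the part at the 5' end and 8.57% in the part at the 3' end; without a listed start these shares were 22.0% and 17.6%. The rule itself removes the 5 kb at each end, which takes more from short genes.

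The 10 intragenic peaks taken as highest by score lay in genes of several functions. Srpk2, a kinase of splicing factors, held the highest score of all distal peaks, 3228, in 2283 bp with no DLX3 peak (chr5:23674374-23676656); of 2 listed starts under it, the CpG-rich one is shown above, and the other has 7 CpG, a CpG ratio of 0.476 and a match to TAATT. Rbpj, the DNA-binding effector of Notch signalling, held a 4223 bp peak of score 3100 with 2 DLX3 peaks, the higher at 317 (chr5:53588133-53592355). Fam13b (3200), Arhgef2, a guanine nucleotide exchange factor (3109), and Ywhaz, Bicral, Cdyl, Tmpo, Ecpas and Macf1 (3100 each) completed the 10. Scores pile up at 3100, which 20 intragenic peaks reached or passed, and ties went to the wider peak. Of these 10, Srpk2, Arhgef2, Bicral and Ecpas had no DLX3 peak on the mark, and the DLX3 score at Ywhaz, a 14-3-3 adaptor protein, was 237. A start listed by RefSeq lay under the peaks of Srpk2, Arhgef2, Rbpj, Cdyl, Tmpo and Ecpas.

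Of 13961 coding genes longer than 10 kb, 1518 (10.9%) held at least 1 distal peak in their span. A single peak was held by 1194 genes, 2 by 216 and 3 or more by 108. Long spans give more room: the genes with a peak had a median span of 72.9 kb, against 33.1 kb for all genes over 10 kb. The share was 6.21% for spans of 10 to 50 kb, 17.3% for 50 to 200 kb and 27.5% above 200 kb. It was close to these values, at 5.84%, 14.8% and 27.5%, among the 9555 genes with H3K4me3 within 1 kb of an end.

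Bcl11b, a zinc finger transcription factor of epidermis and T cells, held 9 distal peaks in 93.7 kb, the most of any gene. Their scores ran from 54.2 to 215, none covered a listed coding start, and none overlapped DLX3. Some of the 9 nearly touched, such as chr12:107950801-107951739 and chr12:107951818-107954445, so counts per gene are counts of peak calls. Tmcc3 held 7, of which 5 overlapped DLX3 (highest DLX3 score 397), and their H3K4me3 scores ran from 57.1 to 3037. Sh3pxd2a, an invadopodium scaffold, held 7 with DLX3 on 4, and Sptbn4 held 7 with DLX3 on 1. Foxp1, a forkhead factor, held 6, among them a 2660 bp peak of score 2320 at a coding start and a 1144 bp peak of score 72.7 on a DLX3 peak of 329. Bcor, a corepressor gene on chromosome X, held 6 with scores up to 931 and no DLX3. The median score of the peaks was 77.0 in Foxp1, 86.7 in Bcl11b, 86.8 in Sh3pxd2a, 89.8 in Sptbn4, 133 in Tmcc3 and 457 in Bcor, beside 162 over all distal peaks.

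Lists of epidermal genes were set beside the 10.9% of all long coding genes. Of the epidermal transcription factors, 31 of 59 longer than 10 kb held a distal peak (52.5%), and the median span of the 59 was 86.9 kb. For spans of 50 to 200 kb the count was 12 of 18, and for spans of 10 to 50 kb it was 9 of 24. Of adhesion, junction and cytoskeleton genes 19 of 48 held one (39.6%, median span 59.9 kb), and of growth factor, Notch, Wnt and BMP signalling genes 15 of 51 (29.4%, median span 69.0 kb). A DLX3 peak lay on a distal peak in 9 of the 31 transcription factor genes, 16 of the 19 adhesion genes and 9 of the 15 signalling genes, beside 587 of all 1518 coding genes with a distal peak (38.7%). These lists were chosen with results of these data known, so the counts describe the genes and nothing more is read from them.

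Among the transcription factors, Nfia, a nuclear factor I gene, held 5 distal peaks with scores from 59.9 to 1053. DLX3 lay on 2 of the 5, at scores of 101 and 148. Casz1, a zinc finger factor, held 4 peaks of scores 54.7, 58.7, 101 and 204, and Nfix and Nfic, relatives of Nfia, held 3 each; none of these 10 peaks overlapped DLX3. Satb1, a chromatin organizer, held a 3172 bp peak of score 2170 at a coding start, and Bnc2, a basonuclin, a 3468 bp peak of score 1350 without a listed start; neither met DLX3. The peaks with the highest DLX3 scores among these factors, other than the Foxp1 peak above, had low H3K4me3: Tead1, a DNA-binding partner of the Hippo effectors, had a score of 160 on a DLX3 peak of 532, Rxra, a retinoid receptor, 73.6 on 209, and Grhl1, a grainyhead factor, 86.2 on 199.

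Among the adhesion genes, Tjp1, a tight junction scaffold, held a 1977 bp peak of score 2658 at a coding start with DLX3 at 75.3. Jup, plakoglobin, held 2 peaks of scores 261 and 175, the first with 2 DLX3 peaks up to 153. Cdh1, E-cadherin, held 3 peaks of scores 75.7, 52.8 and 57.2, with DLX3 on 2 of them at 77.9 and 274. Actn4, an actin crosslinker, held 3 peaks of scores 61.2, 61.5 and 78.0, all on DLX3, the highest at 410. Ctnnd1, p120 catenin, held 3 with DLX3 on 2, and Pkp1, a desmosomal plaque protein, 4 with DLX3 on 1.

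Among the signalling genes, Stat5b held a 2693 bp peak of score 1859 at a coding start without DLX3, and Igf1r a 2284 bp peak of score 1003 without DLX3. Pik3r1, a regulatory subunit of PI3 kinase, held a 3578 bp peak of score 767 at a coding start with DLX3 at 78.9. Bmp7, Notch2, Itpr1 and Erbb3 held peaks of scores between 59.5 and 212, each of them on a DLX3 peak.

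At noncoding gene ends, long noncoding RNAs were the nearest gene for 525 of the 718 peaks and tRNA genes for 74. Pseudogenes accounted for 45, transcribed pseudogenes for 25, small nuclear RNAs for 18 and microRNA hairpins for 18. Counted by gene, 805 of 24363 noncoding genes with an end over 5 kb from coding ends (3.3%) had a distal peak within 1 kb of an end. The share was 37.7% of tRNA genes (114 of 302), 4.99% of long noncoding RNA genes (555 of 11115), 2.83% of microRNAs and 0.527% of pseudogenes (47 of 8912). Neighbouring genes can share 1 peak, so the 114 tRNA genes are not 114 separate marks.

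**Figure D3:**
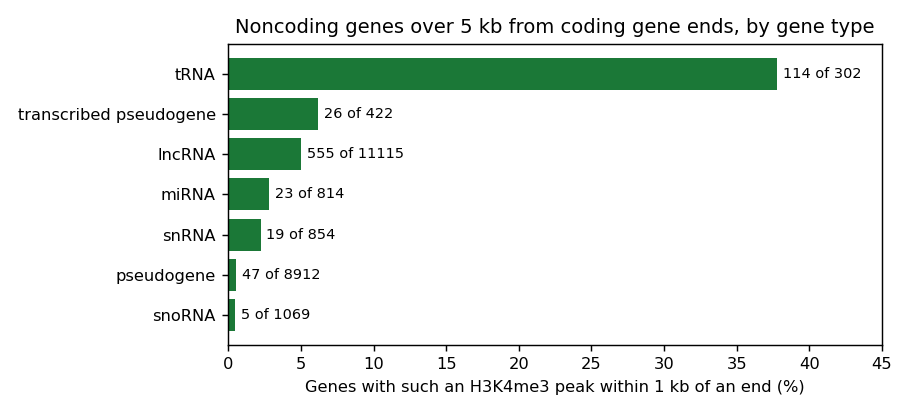
Share (%) of noncoding genes, by type, that have a distal H3K4me3 peak within 1 kb of an end; the labels give the counts. The bar for tRNA genes, 114 of 302, is the longest of the 7 types shown.

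Peaks nearest to tRNA genes scored a median of 585 over 2101 bp. Of the 74, 37 lay on chromosome 13, with a median score of 341 and DLX3 on 2. In all, 12 of the 74 overlapped DLX3 (16.2%, 9.53 to 26.2), against 174 of the 525 at long noncoding RNAs (33.1%, 29.3 to 37.3). The highest were n-TDgtc15 (score 3143, 4008 bp, DLX3 69.2) and n-TEctc13 (score 3100, 4487 bp, DLX3 51.9), both with a DLX3 score below the median of that list, 83.4.

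Other housekeeping RNAs with a distal peak had scores from 68.3 to 1741. Of 16 structural RNAs found in the annotation, 7 had an end over 5 kb from coding ends, and 5 of these had a distal peak: Terc, the telomerase RNA (790), the Y RNAs Rny1 (407) and Rny3 (309), and the spliceosomal Rnu5g (258) and Rnu2-10 (68.3 and 72.6 over 2 peaks). Of these 6 peaks 1, at Rnu2-10, overlapped DLX3, at 94.7. Of 21 snoRNA host genes 8 lay that far from coding ends and 5 of these had one, Snhg5 (1741), Dancr (1409), Snhg17 (1400), Snhg20 (1121) and Snhg4 (822), and DLX3 lay on Snhg20 (91.6), Snhg5 (84.1) and Snhg17 (72.4).

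Of 41 well-known long noncoding RNAs 37 lay that far from coding ends, and 13 of these had a distal peak within 1 kb of an end. Oip5os1 scored 1621, Airn, the imprinted antisense transcript of Igf2r, 852, Jpx 765, Pvt1 705, Firre 677, Peg13 376 and Xist, the X-inactivation RNA, 351. Lower scores were found at Ftx (220), Mir124a-1hg (191), Morrbid (109), Bvht (82.3), Kis2 (79.0) and Trp53cor1, also called lincRNA-p21 (77.8). DLX3 lay on Ftx (262), Trp53cor1 (227) and Bvht (149), 3 of the 13, beside 33.1% of all distal peaks nearest to long noncoding RNA ends.

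Of the 10 highest peaks at noncoding ends, 6 covered a coding start as well. A630072M18Rik (3189) shared its peak with a start of Rsbn1l, 1700052K11Rik (3098) with Tlk2, Gm52285 (3100) with Srrm2, 4930456A14Rik (3100) with Atxn2l, A630026N12Rik (3100) with Gabpb1 and 4930405A21Rik (3100) with Dlgap4. DLX3 lay on Atxn2l (394), Dlgap4 (277) and Srrm2 (194). Mir760 and Gm51983 (3100 each) had no listed start and no DLX3. Of the 718 peaks, 79 covered a coding start.

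Among the peaks with neither a noncoding end within 1 kb nor a coding span around them, several of the highest-scoring lay between 1654 and 21067 bp from microRNA loci. The median distance of this class from any noncoding gene end was 11347 bp. Whether lower-scoring peaks lay as close to microRNAs was not tested. Counted as a list, 3 of 34 epithelial microRNA loci over 5 kb from coding ends (8.82%) had a distal peak within 1 kb: Mir22hg, Mir99ahg (391) and Mir199a-2 (50.5). The loci named here and next were picked after their values were seen, and most lie farther from their peak. The highest score of this class was 3100 over 4421 bp (chr14:115039807-115044227). The centre of this peak lay 1654 bp before the hairpin of Mir17, the head of the cluster whose sequences stand above. The peak covered that hairpin and those of Mir18 and Mir19a, and it overlapped a DLX3 peak of 68.1. The next, also 3100, lay 16276 bp from Mir15a with DLX3 at 110. Both that peak and Mir15a lay inside the span of the long noncoding RNA Dleu2. A separate H3K4me3 peak of 4829 bp and score 3045, too wide for the rule, was centred 225 bp from an end of Dleu2. A 2818 bp peak of score 2412 (chr13:48544543-48547360) lay 7679 bp upstream of Mirlet7a-1 and its neighbours Mirlet7f-1 and Mirlet7d, with DLX3 at 246. A 3308 bp peak of score 2300 lay 21067 bp from Mir30d with DLX3 at 265, and a 2398 bp peak of score 1930 lay 15599 bp upstream of Mir30a with DLX3 at 105.

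The epithelial microRNAs Mir200b, Mir200a and Mir429, known for holding back epithelial-mesenchymal transition, lay 2605, 3370 and 4368 bp downstream of a peak of score 2032 (chr4:156056252-156060458). That peak covered the start of Gm13648, whose window is shown above, and a DLX3 peak of 174. Mir22 lay just past the end of the 3766 bp peak at the start of its host Mir22hg (score 2900, chr11:75459886-75463651), which carried 2 DLX3 peaks, the higher at 476. Mir148a (1772, DLX3 142), Mir193b (1741, DLX3 54.9) and Mir193a (1638, no DLX3) had their peak centres within 1 kb of the hairpin. Mir34a, a p53 target, lay 19232 bp downstream of a peak of score 1648 without DLX3, and Mir31 27382 bp downstream of a peak of score 1077 without DLX3. Of 1005 hairpins, 20 had a distal peak centred within 1 kb and 213 within 30 kb, of which 125 lay downstream of the peak on their own strand. Hairpins of a cluster share a peak, so these are not separate cases, and the count expected from strand alone was not worked out. A peak at such a distance need not belong to the microRNA's transcript, since no transcript of these precursors was read here.

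DLX3 overlapped 1196 distal peaks by at least 1 bp (33.7%, 32.2 to 35.3), beside 40.7% of the whole H3K4me3 list and 40.4% of proximal peaks. By class the share was 29.2% at noncoding ends (26.0 to 32.7), 35.5% inside coding spans (33.3 to 37.7) and 33.8% in the remaining peaks (31.0 to 36.7). Conversely, 1276 of 18087 DLX3 peaks (7.05%) lay on a distal peak, from 4.67% of the lowest decile by DLX3 score to 11.4% of the highest. Over the whole H3K4me3 list the same deciles ran from 30.1% to 59.0%, so the rise with DLX3 score is shared by the list.

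Overlap rises with width, and within bins of width the order of the 2 groups changed. Under 1000 bp, 23.2% of distal and 11.5% of proximal peaks overlapped DLX3, a difference of 11.7 percentage points (95% Newcombe interval 7.32 to 15.9). From 1000 to under 1500 bp the shares were 27.0% and 15.4%, a difference of 11.6 points (8.64 to 14.7). From 1500 bp the difference was 3.45 points (-0.348 to 7.37) and from 2000 bp 1.5 points (-3.52 to 6.61). Among peaks at or above the median H3K4me3 score of the list, these differences were -16.0 (-26.7 to -3.58) and -7.25 points (-15.0 to 0.744). With DLX3 peaks at or above their median score, the difference from 1500 bp was 6.97 points (3.75 to 10.4). From 2500 bp up the distal share was lower, 50% against 57.4%, a difference of -7.36 points (-11.8 to -2.90), and with DLX3 peaks at or above their median score it was -4.19 points (-8.29 to 0.126). At the same width distal peaks scored lower, with medians of 109 and 159 from 1000 bp and 1089 and 1836 from 2500 bp. Sorted instead into 5 equal classes of H3K4me3 score over the whole list, the lowest class had DLX3 on 31.1% of distal and 13.2% of proximal peaks, and the highest class on 61.4% and 68.4%.

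Listed starts divided this pattern. Among peaks without a listed start, the distal share was higher in the 4 bins below 2500 bp, by 11.7, 11.2, 11.3 and 8.03 points, with lower bounds of 6.62, 7.38, 6.03 and 0.820. From 2500 bp up it differed by -3.13 points (-10.1 to 3.93). Among peaks on a coding start, distal peaks from 1500 to under 2000 bp had DLX3 on 19.9% against 33.5% of proximal ones, a difference of -13.6 points (-19.6 to -6.29). From 2500 bp the difference was -7.42 points (-14.0 to -0.899), and in the other 3 bins the interval included 0. The higher distal share of the narrow bins was thus found in peaks without a listed start, where the intervals of the 4 bins below 2500 bp lay above 0.

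**Figure D4:**
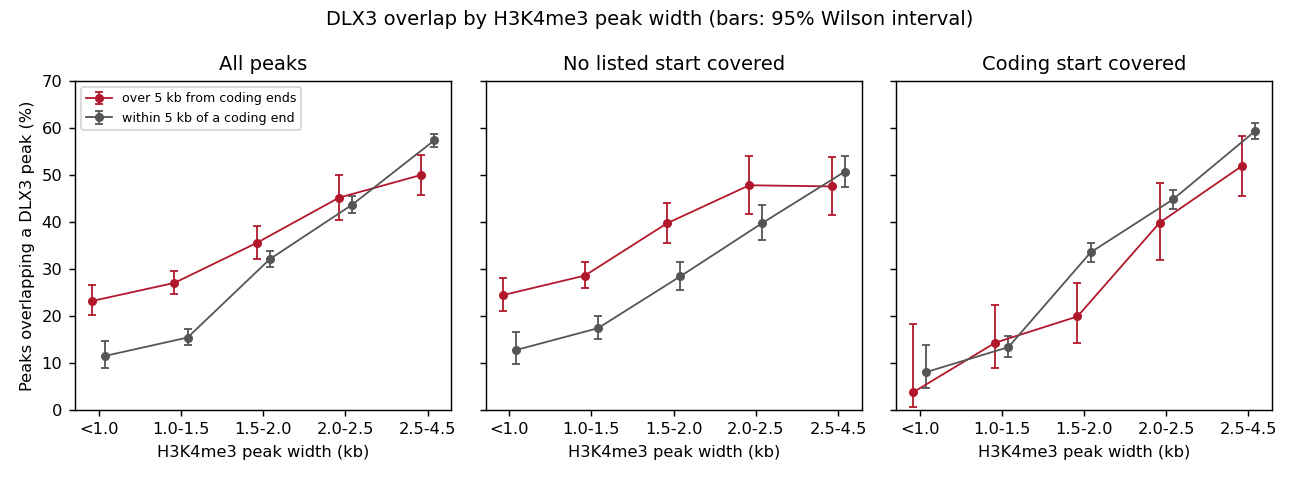
Share of H3K4me3 peaks (%) that overlap DLX3 by H3K4me3 width (kb), for distal (red) and proximal (grey) peaks, in all peaks, peaks without a listed start and peaks on a coding start; bars are 95% Wilson intervals. In peaks without a listed start the distal share lies above the proximal one up to 2.5 kb; on coding starts it is lower in 4 of the 5 bins and 14.3% against 13.3% from 1.0 to 1.5 kb.

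Where DLX3 and H3K4me3 overlapped, the positions of their peak centres were compared. The median offset between the 2 centres was 266.5 bp, against 368 bp in the wider proximal peaks, which is 0.321 and 0.316 of the peak's own width from centre to edge. The DLX3 peak lay wholly inside the H3K4me3 peak for 72.1% of overlapping distal peaks and 93.3% of proximal ones. At matched width these shares were 34.2% and 37.9% under 1000 bp and 87.4% and 96.2% from 2000 to under 2500 bp. A DLX3 peak in the top decile of its list by score lay on 17.3% of overlapping distal peaks and 12.8% of proximal ones. By rising width bin these shares were 16.1% and 15.5%, 20.1% and 5.51%, 17.0% and 6.73%, 13.1% and 10.4%, and 17.8% and 17.0%.

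The 5 highest DLX3 scores of each class lay on H3K4me3 peaks of very different score. Inside genes, Trim2, a ubiquitin ligase, had the highest, 662, on a peak of H3K4me3 score 1669, but Fry (DLX3 610), Hdac5, a histone deacetylase (583), Tead1 (532) and Fbxo46 (450) had H3K4me3 scores of 150, 224, 160 and 343. In the remaining class the peaks nearest to Gm572 (DLX3 646), Jun, an AP-1 subunit (609), Irx2 (525) and Psen2 (450) had H3K4me3 scores of 57.9, 96.2, 50.8 and 59.5; the Jun peak lay 109251 bp from that gene. Another, nearest to Cd83, scored 339 at the start of Gm33195 with DLX3 at 548. The DLX3 peaks by Gm572 and Irx2 were centred outside the H3K4me3 peak, 1036 and 608 bp from its centre. At noncoding ends A230028O05Rik (DLX3 477, H3K4me3 685) and Mir22hg (476, 2900) were highest, followed by Gm35378 (433, 73.6), G370120E05Rik (414, 153) and Gm38978 within Actn4 (410, 61.2). Trim2, Mir22hg, A230028O05Rik, Fbxo46, the Cd83 peak and Hdac5 exceeded the distal median H3K4me3 score of 162, and the other 9 of these 15 did not. All but Trim2 and Mir22hg were below the proximal median of 1004. So were 80.7% of all distal peaks with DLX3, beside 87.4% of all distal peaks.

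On chromosome X, 17 of 101 distal peaks overlapped DLX3 (16.8%), against 34.2% on autosomes. Proximal peaks showed 16.0% on X and 41.2% on autosomes, and 153 DLX3 peaks in all lay on that chromosome.

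Base composition at the covered starts was intermediate. The median ratio of observed to expected CpG was 0.678 in 768 windows at coding starts under distal peaks and 0.526 in 460 windows at long noncoding RNA starts under them. It was 0.789 at 10755 coding starts under proximal peaks, 0.198 at 8900 coding starts under no H3K4me3 peak and 0.209 at 9702 unmarked long noncoding RNA starts. A ratio above 0.6 was found in 61.2% of the windows at distal coding starts, 43.7% at distal long noncoding RNA starts, 78.4% at proximal coding starts and 6.35% at unmarked coding starts. A DLX3 peak touched 29.3% of the windows at distal coding starts and 41.4% at proximal ones.

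**Figure D5:**
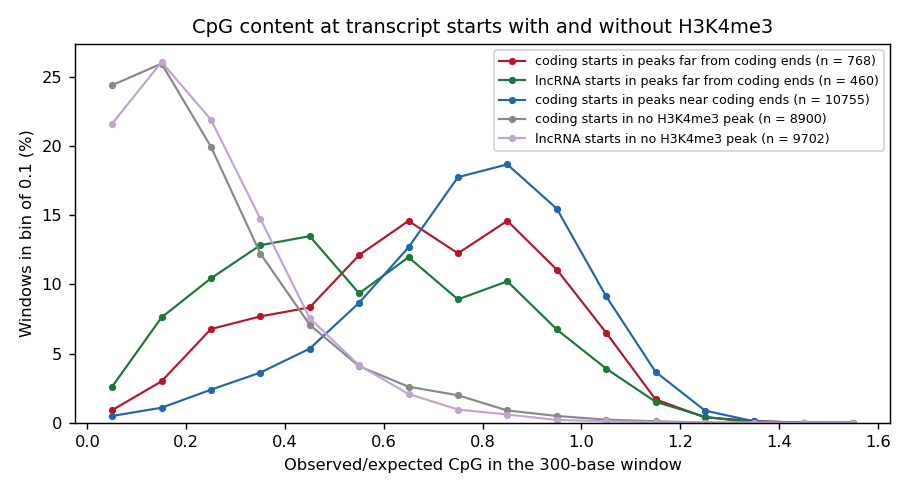
Distribution of the ratio of observed to expected CpG in 300-base windows at RefSeq starts, as the share of windows (%) in bins of 0.1 (the last bin is open), for starts under distal peaks, under proximal peaks and under no H3K4me3 peak. Starts under distal peaks spread between the unmarked starts (median 0.198) and proximal starts (median 0.789).

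The windows were searched on both strands for TAATT, the homeodomain core. It occurred in 14.5% of windows at distal coding starts, 24.3% at distal long noncoding RNA starts, 14.3% at proximal coding starts and 27.0% of all listed starts. Among windows under distal peaks, it was found in 65 of the 343 that a DLX3 peak touched and in 17.9% of the 885 others.

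The AP-1 site, searched as TGACTCA, occurred in 5.21% of windows at distal coding starts, 3.91% at distal long noncoding RNA starts, 3.03% at proximal coding starts and 5.20% of all listed starts. It was found in 5.83% of distal windows that DLX3 touched and in 4.29% of the others. A promoter element, searched as TATAAA, occurred in 4.30%, 8.04%, 5.89% and 13.6% of the same 4 groups. The groups differ in base composition, with a median of 61.7% G and C at distal coding starts against 52.7% over all starts, and no match says only that the letters are not in the window.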

How the data were processed

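DLX3 and H3K4me3 were profiled by ChIP-seq in suprabasal keratinocytes, 1 library each; the IgG library was not analysed here. The authors deposited 1 peak list per library with a score for each peak; Bowtie 1.1.2, MACS 1.4.2 and HOMER are named with build mm10, per the submitters' processing notes. What each was set to, and which control the calls had, is not stated by any label. The lists hold no read counts, so the depth is unknown. No sequence of the peaks themselves was read.

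Gene spans (21900 protein-coding genes), transcript starts and microRNAs came from RefSeq tables for GRCm38.p6, the assembly of mm10. A span runs from the outermost start to the outermost finish of a gene. Position of a peak means its centre, and overlap with DLX3 means at least 1 bp. Where spans overlapped, the shortest held the peak. Shares carry 95% Wilson intervals, and differences of shares Newcombe intervals. Computation used Python 3.11.15 with pandas 2.3.3, numpy 2.4.6 and scipy 1.17.1, and the distance and overlap functions were tested on simulated data.

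Named peaks were the 10 highest by H3K4me3 score and the 5 highest by DLX3 score in each class, the narrowest and widest, coding genes with 3 or more peaks, and genes of 7 lists; microRNAs, printed windows and examples within lists were picked after their values were seen. The peaks, bins and gene lists were chosen with earlier results of these data known. Alternatives changed the distances, the width limit, the gene types, the overlap rule and the score thresholds.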

Additional observations from a re-analysis of the deposited data

How the results depend on the processing

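No paired analysis was possible because each antibody has 1 library. Without read counts, the depth behind a peak is unknown, and a region absent from a list was not called rather than shown to be unmarked. Low-scoring peaks rest on the authors' threshold. The table of starts is incomplete and covers coding genes and long noncoding RNAs.

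The distal share of the list (21.2%) became 28.6%, 15.7% and 10.5% with limits of 2, 10 and 20 kb, 21.8% with no width limit, 15.5% under 2000 bp and 6.67% at or above the median H3K4me3 score. The share at noncoding ends (20.2%) became 18.4% at 2 kb, 18.9% under 2000 bp, 14.2% and 34.1% with noncoding ends within 500 bp and 5 kb, 18.3% without pseudogenes, 5.16% without Gm, LOC and Rik genes and 27.4% at high H3K4me3 score. The intragenic share (49.7%) became, over the same settings, 53.9%, 45.1%, 52.1%, 43.8%, 54.9% (without Gm, LOC and Rik genes) and 64.9%, and 47.7% and 47.2% at 10 and 20 kb.

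The DLX3 share (33.7%) became 28.5% under 2000 bp, 48.0% at high H3K4me3 score, and 21.4% and 10.1% with DLX3 peaks above their median or in their top 20%. In that order it became 23.5%, 44.4%, 19.6% and 9.33% at noncoding ends (24.0% without Gm, LOC and Rik genes), 28.8%, 47.8%, 21.3% and 9.52% inside genes, and 30.6%, 62.8%, 22.9% and 11.6% elsewhere. Requiring the DLX3 centre or 50% of its length inside the peak moved none of these 4 shares beyond its interval.

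The differences from proximal peaks within width bins were recomputed as alternatives chosen after seeing the data. With DLX3 peaks in the top 20% they were 4.62 points under 1000 bp and 5.86 points from 1000 bp. At high H3K4me3 score they changed sign, to -16.0 points (-26.7 to -3.58) from 1500 bp and -7.25 points (-15.0 to 0.744) from 2000 bp. The second of these intervals included 0, and the cause was not tested. The narrower bins held fewer than 20 distal peaks. With DLX3 peaks above their median or in their top 20%, the difference from 1500 bp was 6.97 (3.75 to 10.4) or 5.90 points (3.65 to 8.50), and from 2500 bp -4.19 (-8.29 to 0.126) or -3.11 points (-6.07 to 0.301). Leaving out gene types, changing the noncoding distance or dropping the width limit cannot change these bins.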
